A study of Danio rerio with 12 samples.

Results

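Immediate-early genes are transcribed within minutes of a stimulus, without new protein being made first, and many of them are switched on in neurons by calcium and cAMP acting through CREB or by MAP kinases acting through SRF. Here 7 activity-regulated genes were followed in the zebrafish pineal gland: the transcription factor genes egr1, egr2a, nr4a1 and npas4a, the neurotrophin gene bdnf, and the growth-response genes btg2 and ier2a. The members were all probe sets whose platform annotation gave exactly 1 of these symbols, which made 9 probe sets of 15502 (7 of 8793 named genes), and 8 of the 9 (at least 1 for each gene) passed the filter on dim probe sets. Pineal photoreceptors of fish sense light directly and hyperpolarise in it, and their calcium and cAMP levels, which are high at night, also set the activity of the melatonin-making enzyme Aanat2.

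The samples were 12 pools of 12 pineal glands, each hybridised to 1 array. All fish were adults, 0.5 to 1.5 years old, males and females, of the strain Tg(aanat2:EGFP)Y8, in which aanat2 regulatory regions drive EGFP in the gland; they had been raised in cycles of 12 h of light and 12 h of darkness and had been in constant darkness since the previous evening. The 6 light pools came from fish illuminated for 1 h (12 W/m2) before they were sampled, and the 6 dark pools from fish left in darkness, with 1 pool of each kind at circadian time (CT) 2, 6, 10, 14, 18 and 22 h. With 1 pool per time and treatment, the 6 times served as the replicates of the light comparison, and p-values measure the spread over times and pools.

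Of 13 pineal markers 9 were on the array, and 8 passed the filter. Median signals over the 12 arrays were 1512 for aanat2, 1265 for the pineal opsin gene exorh and 5628 for tph2. The dimmest were otx5, at 190, and valopa, which at 39.1 did not pass the filter. The bacterial and phage transcripts added at hybridisation had a mean log2 level of 10.30 to 11.20 on all 6 light arrays and on the dark array of CT22, and of 9.58 to 9.83 on the other 5 dark arrays, so that only at CT22 did both treatments lie in the higher class. Array medians also separated by class, at 82.8 to 99.5 in the higher class and 70.3 to 81.9 on the other 5 dark arrays. The median light difference was 0.09 log2 over all probe sets without the filter and 0.02 over those past it. Leukocyte markers (12 of 15 on the array) summed to 1569 to 2177 in light pools, against 1215 to 1733 in dark pools. Muscle markers (12 of 15 on the array) summed to 797 to 1789 in light pools, against 451 to 878 in dark pools. Skin markers (18 of 18) summed to 2433 to 10713 in light pools, against 1545 to 7035 in dark pools, and were higher in light at only 2 of 6 times. Brain neuron markers (14 of 23) summed to 12028 to 19918 in light pools, against 11648 to 23071 in dark pools. Their part in the results on light was not tested, and in a bulk sample fewer cells of a type and less RNA per cell cannot be told apart.

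Egr2a was the 1 member called for light, about 2-fold higher in light pools, and the call was lost without the filter on dim probe sets (adjusted p = 0.0598 by limma). Its mean log2 level was 6.84 in light pools and 5.85 in dark pools, on either side of the filter at 6.15, so it passed the filter only through its light pools. No light difference of egr1, nr4a1, npas4a, bdnf, btg2 or ier2a passed the threshold. Of the 8 member probe sets tested, 1 was called (limma, Benjamini-Hochberg adjusted p below 0.05 over 9301 probe sets), against 2.31% of all probe sets in either direction and 1.58% in the higher direction. No member was called for time of day or for a light response that varied over the cycle. The largest differences of nr4a1, npas4a, btg2 and ier2a at single times ran in both directions.

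**Figure D1:**
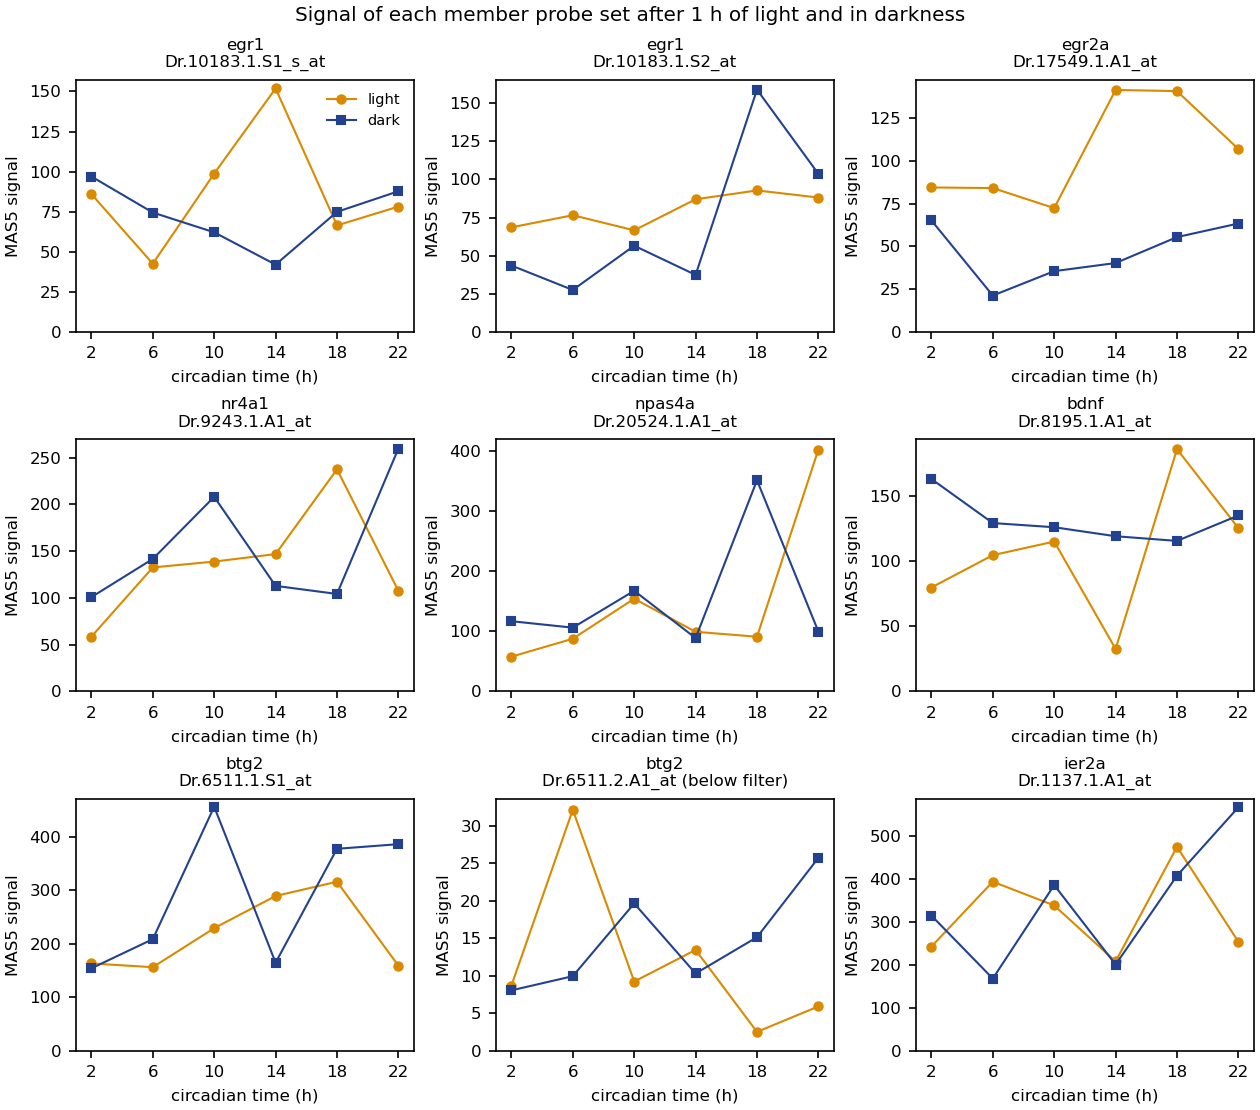
MAS5 signal (linear scale from 0) of the 9 member probe sets against circadian time in hours, with circles for the 6 light pools and squares for the 6 dark pools, 1 array per point. The light curve of egr2a lies above its dark curve at all 6 times, while the curves of every other probe set cross.

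Egr1 and egr2a encode zinc finger transcription factors of the EGR family; egr2 (Krox20) is known from hindbrain patterning and from myelination by Schwann cells, and egr1 from learning and growth factor responses. The egr2a probe set gave signals of 84.5, 84.1, 72.4, 142, 141 and 107 in the light pools of CT2, CT6, CT10, CT14, CT18 and CT22, against 65.2, 21.2, 35.5, 40.3, 55.4 and 63.4 in the dark pools of the same times. Every light pool was above every dark pool, which was so for 0.753% of the probe sets tested and for 0.781% of all 15502 without the filter. The lowest light pool was that of CT10 and the highest dark pool that of CT2, so the gap between the groups was small beside the range within each.

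The mean difference of egr2a was 1.00 ± 0.22 log2 (SE, n = 6 pairs of pools, light minus dark; adjusted p = 0.0352 by limma), a fold of 2.00 with a 95% confidence interval of 0.53 to 1.47 on the log2 scale. By p it stood at place 148 among the probe sets tested. The exact sign-flip permutation test of the 6 differences, two-sided, gave p = 0.0312, the smallest that 6 pairs can give. Any probe set with 6 differences of the same sign reaches this value, and 954 of the 9301 tested had them in either direction. It therefore adds no more than the sign count. Its difference was 0.32 at CT2, 1.51 at CT6, 0.82 at CT10, 1.54 at CT14, 1.17 at CT18 and 0.65 at CT22. The difference was positive at every time, smallest at CT2 and largest at CT14.

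The call of egr2a lay close to the threshold. It was lost without the filter (above), with quantile normalization (0.85 ± 0.20 log2, adjusted p = 0.0524 by limma) and when CT6, CT10, CT14 or CT18 was left out (adjusted p = 0.115, 0.110, 0.0960 and 0.0997 by limma, with differences of 0.90, 1.04, 0.89 and 0.97 log2). It was also lost with the spike-in level in the model (0.50 ± 0.35 log2, adjusted p = 0.658) and with the spike-in class (0.89 ± 0.41 log2, adjusted p = 0.988). In fits with the class, here and below, a 24 h cosine and sine replaced the time-point block. All light arrays but only 1 dark array were of the higher class, so these fits cannot tell light from spike-in level. Over all probe sets the light calls fell from 215 to 8 with the level and to 3 with the class. Among the 7 arrays of the higher class the difference was 0.75 ± 0.38 log2; there 1 dark array stood against 6 light ones and no probe set was called, so this value carries no test of the call. The probe set was dim: it lay between the 44.5th and the 63.5th percentile of the array in light pools and between the 16.2nd and the 44.5th in dark pools. Oligodendrocyte markers (6 of 12, among them sox10, which Schwann cells share) summed to 1310 to 2020 in light pools, against 1291 to 3165 in dark pools, and so overlapped between the treatments. Their sum was higher in light at 3 of 6 times. The sums of muscle and leukocyte markers also overlapped between the treatments, and were higher in light at 6 and 5 of 6 times. The mean log2 difference of the markers past the filter was 0.61 for muscle (6 genes) and 0.37 for leukocytes (8 genes). The part of these markers in the egr2a difference was not tested.

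**Figure D2:**
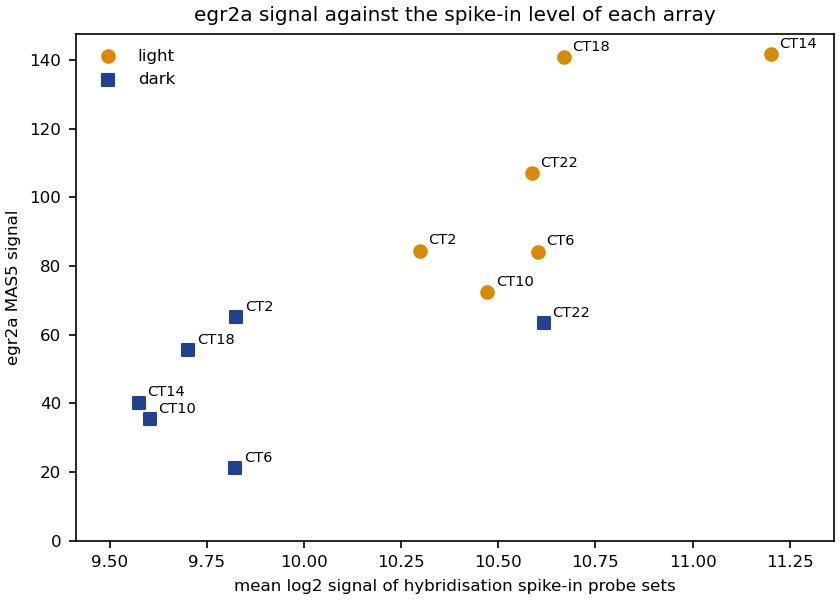
MAS5 signal of egr2a (linear scale from 0) against the mean log2 signal of 18 hybridisation spike-in probe sets on the same array, with circles for the 6 light arrays and squares for the 6 dark arrays, each marked with its circadian time. The dark array of CT22, at 63.4 for egr2a, lies among the light arrays on the spike-in axis and below all of them on the egr2a axis, and the light array of CT14 has both the highest spike-in level and the highest egr2a signal.

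Egr1 was measured by a pair of probe sets that disagreed. The S1_s_at probe set, whose suffix marks probes that match more than 1 transcript, had a lowest, median and highest signal of 42.5, 82.1 and 152 in light pools, against 41.9, 74.7 and 96.9 in dark pools. The S2_at probe set gave 68.6, 76.5, 66.6, 87.0, 92.8 and 88.1 in the light pools of CT2 to CT22, against 43.5, 27.5, 56.5, 37.4, 159 and 104 in the dark pools. The groups overlapped for both.

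By the first, egr1 was highest in the light pool of CT14 and lowest in the dark pool of CT14. By the second, the highest pool was the dark one of CT18 and the lowest the dark one of CT6. That dark pool of CT18 had the highest marker sums of all pools for brain neurons (23071), glia (16904) and oligodendrocytes (3165). Its pineal marker sum (11861) was the lowest. The part of these markers in the egr1 values was not tested. Over the 12 arrays the log2 values of both egr1 probe sets correlated with Pearson's r = 0.21 (Spearman's rho = 0.20), as a description. Their light differences were 0.18 ± 0.27 log2 (95% interval -0.40 to 0.76, higher at 2 of 6 times) and 0.33 ± 0.25 log2 (-0.23 to 0.88, higher at 4 of 6 times; adjusted p = 0.772 and 0.532 by limma). These intervals still allow a rise as large as 0.76 and 0.88 log2, so a modest change of egr1 was not detectable here.

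Both egr1 estimates turned below 0 with the spike-in level in the model (-0.61 and -0.05 log2) and among the arrays of the higher class (-0.22 and -0.23 log2). In light pools egr1 by the second probe set varied little, its highest signal being 1.39 times its lowest, whereas in dark pools this ratio was 5.78. For the first probe set the ratios were 3.57 in light pools and 2.31 in dark pools.

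Nr4a1 encodes an orphan nuclear receptor (Nur77) induced by cAMP and calcium in many cell types. Its lowest, median and highest signals were 58.4, 136 and 238 in light pools, against 101, 127 and 260 in dark pools. The highest pools were the dark ones of CT22 (260) and CT10 (208) and the light one of CT18 (238), and the treatments overlapped from 101 to 238. The light difference was -0.17 ± 0.25 log2 (95% interval -0.72 to 0.38; adjusted p = 0.762 by limma), with a value of -1.18 at CT22 and a positive one at CT18 (238 in the light pool, against 104 in the dark pool), and without CT22 the mean was 0.03. With the spike-in level in the model the difference was -1.01 ± 0.37 log2 (adjusted p = 0.419), and with the spike-in class -1.26 ± 0.46 (adjusted p = 0.857).

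Npas4a encodes a bHLH-PAS transcription factor that in mammals is induced almost only in neurons, by calcium entry. Its signals were 57.7, 87.5, 154, 99.1, 90.9 and 403 in the light pools of CT2 to CT22, against 117, 106, 167, 88.7, 351 and 99.4 in the dark pools. A single pool stood out in each treatment, CT22 among the light ones and CT18 among the dark ones, and every other pool lay between 57.7 and 167.

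The light difference of npas4a was -1.81 log2 at CT18 and 1.89 at CT22, and its mean was -0.17 ± 0.35 (95% interval -0.93 to 0.59; adjusted p = 0.838 by limma). The mean was above 0 without CT18 (0.16). Brain neuron markers summed to 19918 in the light pool of CT22 and to 23071 in the dark pool of CT18, the 2 highest sums of the 12. The third highest sum, 19491 in the dark pool of CT14, went with an npas4a signal of 88.7, the lowest among dark pools. Oligodendrocyte markers also had their 2 highest sums in the dark pool of CT18 (3165) and the light pool of CT22 (2020). Those of glia markers were in the dark and the light pool of CT18. The part of these markers in the npas4a values was not tested.

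**Figure D3:**
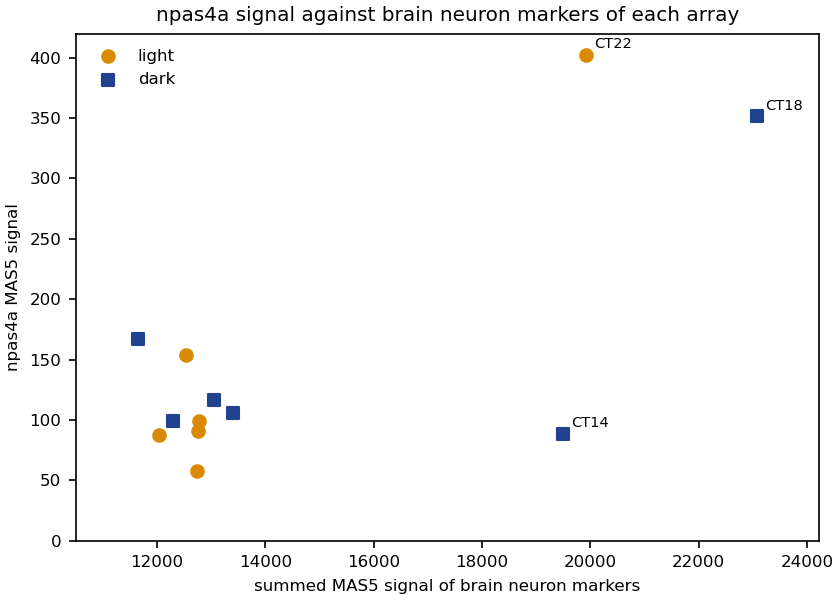
MAS5 signal of npas4a (linear scale from 0) against the summed MAS5 signal of the 14 brain neuron markers on the same array, with circles for light and squares for dark arrays. Of the 3 arrays with the highest sums (19491 to 23071), marked with their circadian times, the light array of CT22 and the dark array of CT18 hold the 2 highest npas4a signals (403 and 351), and the dark array of CT14 lies among the low ones.

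Bdnf encodes brain-derived neurotrophic factor, which in mammalian neurons is a late target of CREB and Npas4. Its lowest, median and highest signals were 32.6, 110 and 186 in light pools, against 116, 128 and 163 in dark pools. The groups overlapped, and the light pools spread more widely: the highest light signal, at CT18, was 5.71 times the lowest, at CT14, whereas in dark pools this ratio was 1.41.

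Bdnf was lower in light at 5 of 6 times, with CT18 as the exception, by a mean of -0.39 ± 0.24 log2 (95% interval -0.92 to 0.14; adjusted p = 0.434 by limma), and so did not pass the threshold. With the spike-in level in the model the difference was 0.04 log2. The lowest light value, at CT14, came from the array with the highest spike-in level of the 12 (11.20).

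Btg2 encodes an antiproliferative protein of the BTG/TOB family that recruits deadenylases to mRNA, and ier2a a small nuclear protein induced by growth factors. The S1_at probe set of btg2 had a lowest, median and highest signal of 156, 196 and 316 in light pools, against 154, 293 and 456 in dark pools. Ier2a had 208, 296 and 474 in light pools, against 168, 350 and 566 in dark pools. For both genes the 3 highest dark pools were those of CT10, CT18 and CT22: 456, 378 and 386 for btg2 and 385, 407 and 566 for ier2a. The dark pool of CT10 had the highest connective tissue marker sum of all pools (9255, beside 1364 to 2676 in light pools). That of CT18 had the highest sums for brain neurons, glia and oligodendrocytes, and that of CT22 was highest in none of these lists. The part of these markers in the btg2 and ier2a values was not tested.

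The light difference of btg2 was -0.33 ± 0.23 log2 (95% interval -0.82 to 0.17, lower at 4 of 6 times; adjusted p = 0.478 by limma), with -1.21 at CT22 and 0.77 at CT14. That of ier2a was -0.04 ± 0.23 log2 (95% interval -0.55 to 0.47, lower at 3 of 6 times; adjusted p = 0.948), with 1.17 at CT6 and -1.12 at CT22; without CT22 it was 0.18. With the spike-in level in the model btg2 was at -1.09 ± 0.33 log2 (adjusted p = 0.297 by limma) and ier2a at -0.60 ± 0.39 (adjusted p = 0.629), and with the spike-in class they were at -1.02 ± 0.47 and -0.80 ± 0.50. The A1_at probe set of btg2 did not pass the filter, with 2.53 to 32.2 in light pools and 8.07 to 25.7 in dark pools, and its mean difference was -0.21 log2 (lower at 3 of 6 times; exact sign-flip permutation test, two-sided, p = 0.562).

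**Figure D4:**
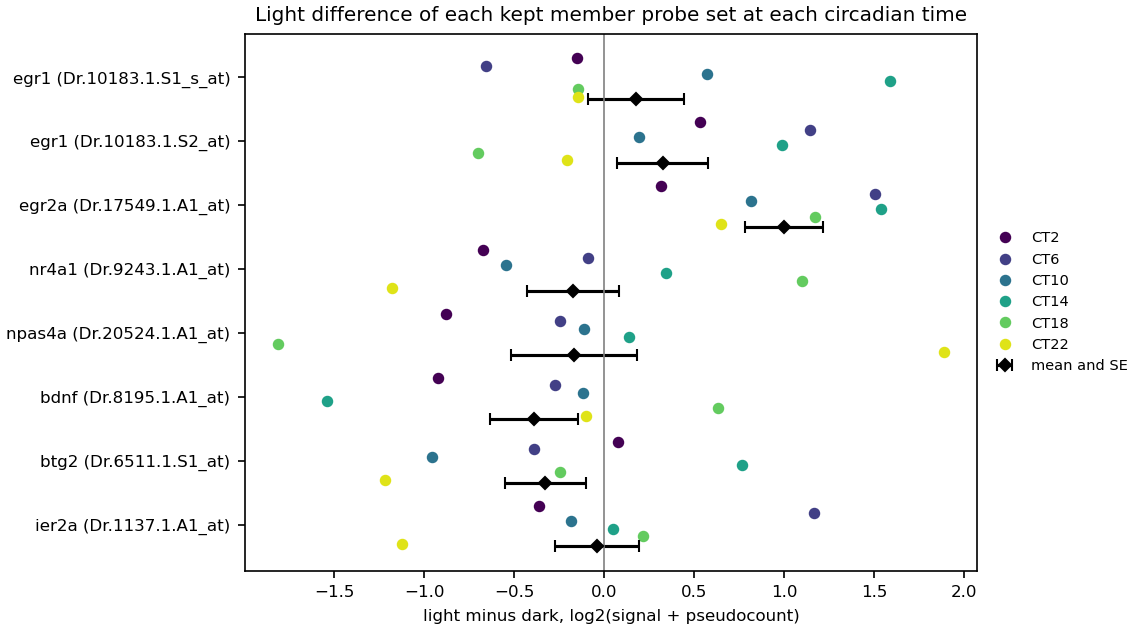
Light minus dark difference on the log2(signal + 13) scale for the 8 member probe sets past the filter; coloured points are the 6 circadian times and black diamonds with bars are the mean and its SE (n = 6). All 6 points lie above 0 for egr2a (0.32 to 1.54), while the points of the other probe sets lie on both sides of 0, those of npas4a from -1.81 to 1.89.

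Over the circadian cycle none of the 8 member probe sets was called by the F-test for a cosine of 24 h period (limma), where 1.98% of all probe sets were. The smallest p-values were those of egr2a, with an amplitude of 0.41 ± 0.14 log2 and a fitted peak at CT19.4 (unadjusted p = 0.0342, adjusted p = 0.280 by limma), and of egr1 by the S2_at probe set, with 0.51 ± 0.18 log2 and a peak at CT19.1 (unadjusted p = 0.0348, adjusted p = 0.283). From dark and from light arrays alone, this S2_at probe set had amplitudes of 0.84 and 0.19 log2. Its highest pool was the dark one of CT18, which also had the highest neuron, glia and oligodendrocyte marker sums. For the other egr1 probe set the amplitude was 0.09 ± 0.18. The other members had amplitudes of 0.24 (ier2a and bdnf), 0.26 (nr4a1), 0.36 (npas4a) and 0.38 log2 (btg2), with adjusted p between 0.461 and 0.753.

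The light response was also compared between parts of the cycle. In light pools egr2a was at 107 to 142 in the subjective night (CT14, CT18 and CT22) and at 72.4 to 84.5 in the subjective day (CT2, CT6 and CT10), without overlap, as were 8.3% of the probe sets tested in that direction. In dark pools it was at 40.3 to 63.4 in the night and 21.2 to 65.2 in the day. The light difference of egr2a averaged 1.12 log2 in the night and 0.88 in the day, and the test of that contrast gave 0.24 ± 0.45 log2 (night minus day, unadjusted p = 0.603 by limma).

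For light by night, 0% of the 9301 probe sets were called by limma, with 296 at an unadjusted p under 0.05, none of them a member; the members' contrasts ran from -0.60 for the S2_at probe set of egr1 to 0.52 for nr4a1, each with an SE of 0.45 to 0.73. For a light response following a cosine, likewise 0% were called, with 864 at an unadjusted p under 0.05. There the S1_s_at probe set of egr1 had the lowest p of the members, with an amplitude of 0.79 ± 0.31 log2 (unadjusted p = 0.0784 by limma).

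Of the 28 pairs of member probe sets 20 had a positive correlation. Pearson's r of the log2 values over the 12 arrays, which share pools and scaling, ran from -0.51 (the S1_s_at probe set of egr1 with bdnf) to 0.68 (nr4a1 with btg2). The pair of egr1 and bdnf gave -0.69 within the light and 0.68 within the dark arrays, and Spearman's rho was -0.19 over the 12. Nr4a1 and btg2 gave 0.75 within the light and 0.66 within the dark arrays. Ier2a and egr1 by the S2_at probe set gave 0.10 within the light and 0.81 within the dark arrays. As above, these are descriptions with no test.

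Among 6024 other genes, those most like each member in pattern were named by the 3 highest Pearson's r over the 12 arrays. For btg2 these were wu:fj62d01 (0.86), the c-Fos gene fosab (0.83) and fbxo44.1 (0.82). Fosab was highest among dark pools at CT10, CT18 and CT22 (1531, 814 and 711, against 159 to 226 in the other dark pools), the same 3 dark pools that were highest for btg2 and ier2a. Since fosab was picked by its correlation with btg2 over these arrays, their shared highest pools are no separate result. In the light pools fosab was highest at CT10 and CT18 (442 and 785), and lay between 61.7 and 124 at the other times.

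For egr2a the most alike were rab5if (0.91), nudc (0.90) and mvb12ba (0.89), for nr4a1 daw1, ubap2b and dguok (0.88 each), and for npas4a clk4a (0.88), lmo2 (0.85) and dcp2 (0.84). For egr1 they were tada1 (0.92), ino80c and arih2 (0.90 each) by the S1_s_at probe set, and stc2a (0.86), olig2 (0.84) and rasd1 (0.82) by the S2_at probe set. The gene most like bdnf was kansl3 (0.92), followed by pigb and dhps (0.91 each), and those most like ier2a were impdh2 (0.83), sec24b and trpc4apa (0.82 each). These are the highest of 6024 correlations for each probe set, and no other member appears among them.

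Genes related to the members by family or by pathway were taken from lists chosen with earlier results of these data known. Of 188 listed genes, members included, 101 were on the array and 80 passed the filter, and 4 of these rose and 3 fell with light, against 1.61% of all 6025 genes called. The median light difference of the 80 was -0.02 log2, beside 0.01 over all genes, and 39 of the 80 were positive, beside 50.8% of all genes.

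In the EGR list (5 of 8 genes kept) only egr2a was called. Its paralog egr2b, the other Krox20 gene of zebrafish, named here after its values were seen, differed by 0.65 ± 0.28 log2 and was higher at 5 of 6 times (adjusted p = 0.250 by limma); with the spike-in level in the model its difference was -0.28. Beside nr4a1, npas4a and bdnf themselves no gene of their lists passed the filter, so nothing is given for nr4a2b, arnt2 or ngfa. Among 5 kept BTG and TOB genes none was called; tob1a, an antiproliferative relative of btg2, differed by 0.48 ± 0.14 log2 and was higher at 6 of 6 times (adjusted p = 0.0902). Among 4 kept IER genes, also without a call, ier5 differed by -0.42 ± 0.22 log2 (adjusted p = 0.355) and ier5l by -0.11 ± 0.16 (adjusted p = 0.768).

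In the pathways that induce these genes, the only calls were sik1 and dusp1, both genes of inhibitors. The other kept sik, dusp and spry genes were not called and differed in both directions. Sik2b was at 0.24, dusp2 at 0.38 and spry2 at 0.23 log2, and dusp5 at -0.49, dusp6 at -0.37 and spry4 at -0.16. Sik1, whose kinase restrains the CREB coactivators, fell by 1.90 ± 0.23 log2 and was the 1 call among 10 kept CREB pathway genes, of which 8 had a negative difference (adjusted p = 0.00183 by limma). Dusp1, whose phosphatase inactivates MAP kinases, fell by 1.91 ± 0.23 log2 and was the 1 call among 13 kept SRF and ERK pathway genes (adjusted p = 0.00183). None of 7 kept calcium signalling genes was called; calm3a, a calmodulin gene, differed by -0.87 ± 0.21 log2 (adjusted p = 0.0538, lower at 5 of 6 times) and camk2d1, a calmodulin-dependent kinase gene, by 0.57 ± 0.21 (adjusted p = 0.181). Calm3a was called without CT22 (-1.10 log2, adjusted p = 0.00627) and at a filter at the 60th percentile (adjusted p = 0.0434), but was at -0.12 with the spike-in level and 0.21 with the spike-in class in the model.

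Among 33 other activity-regulated genes, 3 transcription factor genes rose with light: jun by 1.76 ± 0.16, klf9 by 1.73 ± 0.20 and nfil3-6 by 1.32 ± 0.15 log2. Fosab fell by 1.22 ± 0.28 log2 (adjusted p = 0.0432 by limma), a call that was lost without CT2, CT6, CT10 or CT14 (adjusted p = 0.0573 to 0.159) and without the time-point block (adjusted p = 0.337), where that of nfil3-6 was lost too (adjusted p = 0.0841). The fosab call was also lost without the filter (adjusted p = 0.0513 by limma) and with quantile normalization (adjusted p = 0.0536). The median difference of the 33, a list chosen with earlier results known, was 0.19 log2. Of them 23 were positive, beside 50.8% of all genes. With the spike-in level in the model jun (1.90 log2) and sik1 (-2.45 log2) stayed called (adjusted p = 0.0476 each by limma), and egr2a, dusp1, klf9, nfil3-6 and fosab did not. With the spike-in class, and a cosine and sine in place of the time-point block, the call of jun was lost (1.56 ± 0.29 log2, adjusted p = 0.129 by limma). All 3 probe sets called in that fit were higher in light, so the fall of sik1 was not called there either. Of the 80 genes klf9 and nfil3-6 were the 2 called for time of day; the call of klf9 was lost without CT6 (adjusted p = 0.0674 by limma).

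**Figure D5:**
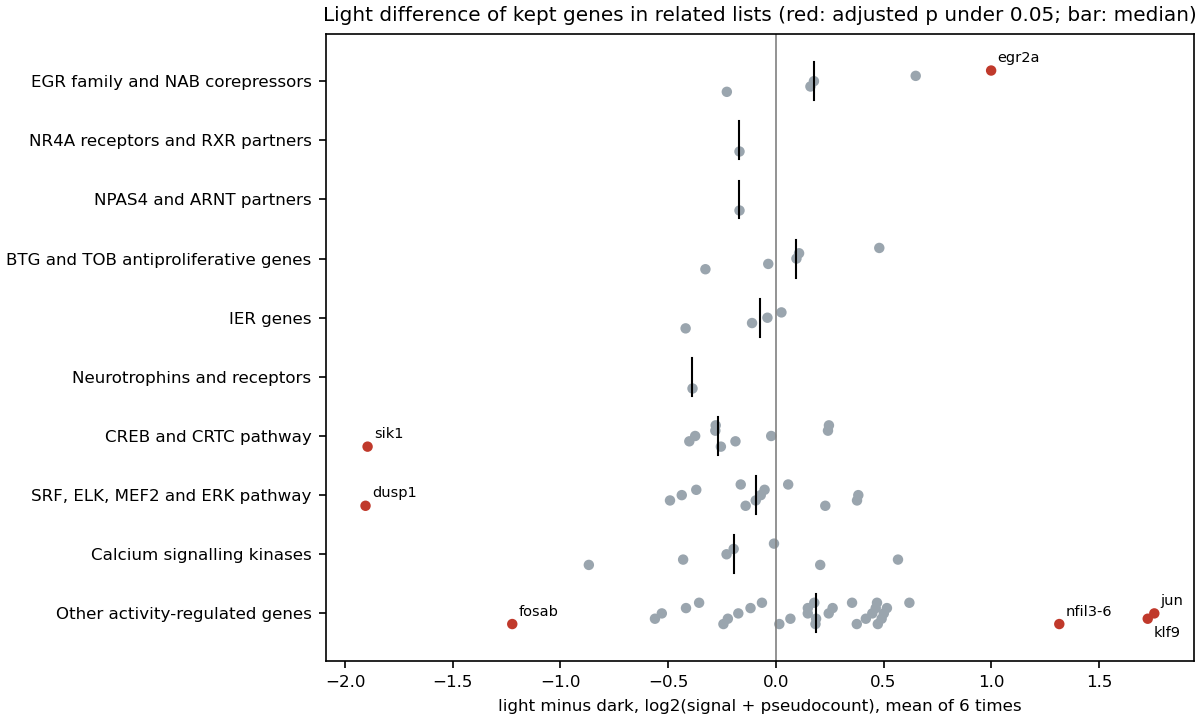
Mean light minus dark difference over 6 times, on the log2(signal + 13) scale, of the 80 genes past the filter in 10 lists of relatives and pathway partners, 1 probe set per gene; red points are called at adjusted p below 0.05, grey points are not, and black bars are list medians. The 7 called genes are egr2a, sik1, dusp1, fosab, jun, klf9 and nfil3-6, and the medians of the lists lie between -0.39 and 0.19.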

How the data were processed

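Each array's deposited column holds linear intensities computed by MAS5; GCOS and MAS5 are named, without versions, per the submitters' processing notes. RNA was amplified in 2 rounds from an oligo(dT) primer, per the labels' protocols, so signals come mainly from 3' ends. The deposited arrays share a trimmed mean (199.9 after removal of 2% at each end), and detection calls were not used here. Of 15502 non-control probe sets, 10795 had 1 gene symbol, 135 several and 4572 none; 10711 of those with 1 symbol matched the current gene table. No coordinates or sequences are given, since the sources name no build.

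Before log2, 13 was added to every signal, a pseudocount near their 10th percentile, which understates changes of dim probe sets. The filter kept 9301 probe sets at or above the 40th percentile of mean log2 value. Tests used limma 3.58.1 in R 4.3.3 (intensity trend, two-sided, Benjamini-Hochberg over all kept probe sets, threshold 0.05). They were light against dark with the time point as a block, a 24 h cosine and sine beside light, and the products of light with these or with subjective night. A check on simulated data used independent normal noise without spike-in differences between arrays, so it does not cover that limit. The pairing rests on the labelled times; deviations of same-time pools correlated with r of -0.05 to 0.30, and those of different times with -0.37 to 0.37. Relatives stand by their brightest probe set. Named are all members, called list genes (else the 2 with the smallest light p), and the 3 genes most alike. Members and lists were chosen with earlier results of these data known. Alternatives were other pseudocounts, filters, scaling, blocks, spike-in terms and left-out times. For the light comparison the spike-in level stood beside the time-point block, and the spike-in class beside light and a 24 h cosine and sine without that block.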

Additional observations from a re-analysis of the deposited data

Results flagged for a closer look

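The npas4a signal of 403 in the light pool of CT22 stood apart from the other light pools: its gap to the next one was 0.720 of the range of the 6. The npas4a signal of 351 in the dark pool of CT18 stood apart in the same way, with a gap of 0.700 of the range; both exceeded Dixon's 95% critical value for 6 samples. On the log2 scale these shares were 0.514 and 0.551, below it. They were the only such cases among 16 groups examined (8 probe sets in light and in dark pools), and chance alone flags about 1 group in 20.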

How the results depend on the processing

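Egr2a kept a positive light difference under every alternative in which it was tested, but its call depended on the setting. Among members, the count of 1 call held with a pseudocount of 1 or 50 and without the replicate block (1 call), and became 0 without the filter (adjusted p = 0.0598 by limma), with quantile normalization (0.0524), with spike-in level, with spike-in class (0.888 log2, adjusted p = 0.988), among the higher spike-in class (1 dark array, no probe set called), and at a 60th-percentile filter, which egr2a did not pass; it was 0 to 1 when single times were left out. Over all probe sets, 215 light calls became 127 without the replicate block, 8 with spike-in level, 3 with spike-in class and 0 among the higher class (limma; 433 at an unadjusted p under 0.05), and 71 (without CT10) to 351 (without CT22) with a time left out. Time-of-day calls, 184 in all, were 20 from dark arrays alone, 23 from light arrays alone, and 48 to 121 with a time left out. The light-by-cosine count was 1 with spike-in level, and it and the light-by-night count were 0 to 1 with a time left out.

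Light differences of uncalled members changed size or sign with the spike-in terms. With spike-in level, spike-in class and among the higher class, nr4a1 was at -1.01, -1.26 and -1.13 log2. In the same order btg2 was at -1.09, -1.02 and -0.97, and ier2a at -0.60, -0.80 and -0.92. None was called with the level or the class. There 2 and 3 of the 8 member probe sets had an unadjusted p under 0.05 (limma), against 1, the called egr2a, without these terms. Of all 9301 probe sets, 934 with the level and 459 with the class had such a p, against 1624 without these terms. Signs changed with spike-in level to -0.613 and -0.0497 for egr1 (S1_s_at, then S2_at), 0.601 for npas4a and 0.0407 for bdnf; with spike-in class -0.0417, -0.0455 and 0.629 for egr1 (same order) and npas4a; among the higher class -0.220, -0.230 and 0.586. Among uncalled relatives, egr2b was at -0.281, ier5 at 0.158 and ier5l at 0.267 with spike-in level; ier5l was at 0.165 and calm3a at 0.213 with spike-in class, and at 0.126 and 0.264 among the higher class. The cause was not tested. With a time left out, light differences ranged from -0.105 to 0.343 for egr1 (S1_s_at), -0.280 to 0.177 for ier2a, -0.580 to 0.159 for npas4a and -0.427 to 0.0280 for nr4a1. Night-minus-day contrasts ranged from -0.378 to 0.706 for bdnf, -0.309 to 0.682 for btg2, -0.0673 to 0.835 for egr1 (S1_s_at), -0.0415 to 0.552 for egr2a and -0.425 to 1.42 for npas4a. Dim signals and 1 pool per time limit what could be detected.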
